A study of Homo sapiens with 60 samples.

Results

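Schisandra fruit, the dried berry of a woody vine used in East Asian medicine, was tested as an ethanol extract on HepG2 cells, a line from a human hepatocellular carcinoma that keeps much of the hepatocyte's secretory programme. Of the 60 libraries of the series, 9 came from this extract, chosen by their labels: 3 at the high dose (500 µg/mL), 3 at the medium dose (100 µg/mL) and 3 at the low dose (20 µg/mL). All had 24 h of treatment, in unmodified cells of 1 cancer line. The question addressed was which transcripts differ between the high and the low dose, and where the medium dose falls. Beside them stood 3 vehicle libraries (dimethyl sulfoxide, 0.1% per the sample labels, while the series text gives another share), and 6 libraries of liriope tuber ethanol extract at the same high and low doses, whose sample codes begin with the same number as those of schisandra. The vehicle libraries carry a code of their own, so a difference from vehicle and a difference between code sets cannot be told apart, and the high dose was read first against the low dose. Expression was measured by RNA sequencing of total RNA. Nothing in the labels says that replicates were separate cultures. The p-values therefore measure only the spread between replicate libraries, which may be technical, as estimated over 54 libraries of the series.

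Several well-studied regulators bear on the genes below. Metallothioneins are small, cysteine-rich proteins that buffer zinc and copper, and the zinc-sensing factor MTF1 turns on their genes and that of the zinc exporter SLC30A1 when free zinc is high. The aryl hydrocarbon receptor (AhR) binds planar aromatic molecules and induces the cytochrome P450 gene CYP1A1, while NRF2 induces genes of glutathione synthesis and quinone reduction when electrophiles modify its inhibitor KEAP1. Sterol regulatory element binding proteins switch on cholesterol and fatty acid synthesis when membrane sterol is low, and hypoxia-inducible factor raises glucose transport and glycolysis. Schisandra fruit is known for its lignans, several of which are ligands of the drug-sensing nuclear receptor PXR or inhibitors of drug transporters.

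The schisandra libraries held 23.7 to 28.5 M expected counts (M for mega), except low-dose replicate 1 with 38.0 M. That library, here called low replicate 1, stood apart. A chi-square of the counts of genes averaging 50 counts or more, divided by its degrees of freedom, was 35.1 and 37.1 between it and its replicates, against 4.47 to 20.7 for the other replicate pairs of this extract. The results below are therefore given with and without it. Levels are CPM, counts divided by the library's total in M, after scaling by the trimmed mean of M-values (TMM), and log2 changes are given ± SE from edgeR. The hepatocyte markers were all among the tested genes (12 of 12), and their summed level was 48890 to 51660 CPM at the low dose and 49470 to 51810 CPM at the high dose. Of 8 leukocyte markers, CD3E and MS4A1 were at 0 in all 9 libraries and PTPRC had 1 count in 1 library. The summed level of that list was 1151 to 1359 CPM at the low dose and 1651 to 1742 CPM at the high dose, nearly all of it LYZ, the lysozyme gene, which rose together with CD68, a lysosomal glycoprotein gene. Of 10 fibroblast and stellate markers 7 were untested and near 0. All 10 summed to 67.5 to 74.6 CPM (low) and 61.0 to 65.3 CPM (high), nearly all of it from the 3 tested genes. Endothelial and erythroid markers summed to at most 6.08 and 1.22 CPM in any schisandra library.

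Promoter sequence is shown here for 4 genes described below that have a window in the RefSeq promoter table: 2 metallothioneins, the zinc exporter and CYP1A1. The 4 were chosen with their values known. Each line is the 250 bases upstream of the annotated start from RefSeq (GRCh38.p14), written 5′ to 3′ on the gene's strand, with matches in capitals. For the first 3 genes the capitals mark the core of the metal response element, TGCACNC or TGCGCNC on either strand, and for CYP1A1 the core of the xenobiotic response element, GCGTG on either strand.
MT2A (chr16:56608334-56608583, plus strand): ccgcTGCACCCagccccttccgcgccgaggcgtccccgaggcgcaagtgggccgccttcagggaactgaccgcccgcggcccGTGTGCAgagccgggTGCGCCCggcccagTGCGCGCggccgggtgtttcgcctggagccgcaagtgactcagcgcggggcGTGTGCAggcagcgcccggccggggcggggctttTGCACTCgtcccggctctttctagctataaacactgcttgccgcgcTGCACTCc
MT1X (chr16:56682220-56682469, plus strand): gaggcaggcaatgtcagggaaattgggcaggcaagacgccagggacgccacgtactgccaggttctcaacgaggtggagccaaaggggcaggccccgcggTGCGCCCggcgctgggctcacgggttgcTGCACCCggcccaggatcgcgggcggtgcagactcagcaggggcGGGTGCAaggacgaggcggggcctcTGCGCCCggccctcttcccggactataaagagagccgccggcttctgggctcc
SLC30A1 (chr1:211579162-211579411, minus strand): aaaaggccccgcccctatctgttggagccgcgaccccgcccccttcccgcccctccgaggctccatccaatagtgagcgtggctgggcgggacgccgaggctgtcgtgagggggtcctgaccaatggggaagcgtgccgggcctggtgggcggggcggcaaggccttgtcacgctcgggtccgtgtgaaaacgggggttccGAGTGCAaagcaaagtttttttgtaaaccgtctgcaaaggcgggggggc
CYP1A1 (chr15:74725529-74725778, minus strand): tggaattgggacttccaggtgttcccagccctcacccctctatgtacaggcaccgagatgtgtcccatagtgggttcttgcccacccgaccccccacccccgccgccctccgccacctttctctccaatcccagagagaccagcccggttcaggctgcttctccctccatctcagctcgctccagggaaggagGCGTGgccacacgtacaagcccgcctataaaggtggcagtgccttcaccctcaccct
The MT2A window held 7 matches, the MT1X window 4 and the SLC30A1 window 1. Of all 34943 such windows 24.8% held at least 1 match to the metal core and 0.4% held 4 or more. Of the 7 metallothionein genes tested, MT2A and MT1X had a window, and both windows of the zinc importer SLC39A10 held 0 matches. The CYP1A1 window held 1 match to the xenobiotic core, which 32.2% of all windows hold and 4 of the 8 windows of the AhR target list (50.0%). The sterol regulatory element TCACNCCAC, searched on either strand, was in 1 of 26 windows of the cholesterol synthesis list (3.8%) and in 0 of the HMGCS1 windows, against 0.9% of all windows. A match is a description of letters, not a bound site.

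Across all 16924 tested genes, 1240 (7.33%) differed between the high and the low dose at an adjusted p under 0.05, 664 higher (3.92%) and 576 lower (3.4%). The 3 libraries of one dose lay wholly above or below those of the other for 18.6% of all tested genes (9.72% higher, 8.87% lower at the high dose). At least 2-fold changes were few, 28 higher (0.165%) and 17 lower (0.1%). Without low replicate 1 the count was 615, of which 520 were also called with it and with one sign. A fit on the schisandra and vehicle libraries alone called 360. Scaling by library size alone called 1391 genes but only 29.1% of them higher, against 53.5% in the reported fit.

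**Figure D1:**
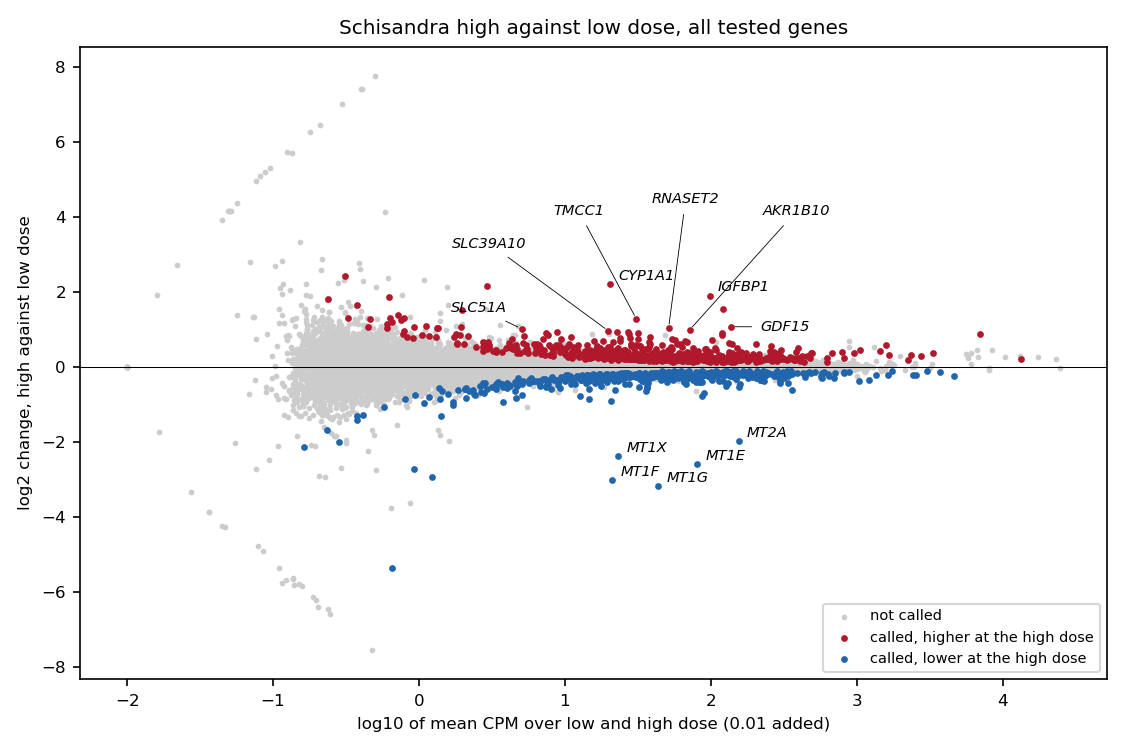
Log2 change from the low to the high dose of schisandra (vertical axis) against the log10 of the mean CPM over both groups (horizontal axis) for each tested gene. Red and blue points passed the test at an adjusted p under 0.05. The metallothionein genes lie alone at the bottom among genes of more than a few CPM, and CYP1A1 and IGFBP1 stand highest among the labelled rises.

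The metallothioneins gave the steepest falls among genes of more than 5 CPM in either group. MT1G read 133, 50.8 and 49.8 CPM in the 3 low-dose libraries, 34.1, 43.2 and 36.1 at the medium dose and 8.49, 8.78 and 8.84 at the high dose, beside 56.5, 59.4 and 54.8 in vehicle. The high-dose libraries lay below every other library, and low replicate 1 lay far above its own replicates. The fall was 9.05-fold (log2 -3.18 ± 0.24, adjusted p = 4.3e-13), and log2 -2.53 without low replicate 1. MT1G lies on chromosome 16 at 56666731 to 56668065 (GRCh38, GENCODE 29), inside the metallothionein cluster with the other genes of the family named here.

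MT2A, the most abundant member by CPM, read 394, 183 and 166 CPM at the low dose, 116, 145 and 130.2 at the medium dose and 65.3, 64.5 and 58.1 at the high dose. MT1E read 229.8, 96.2 and 87.4 CPM at the low dose, 67.5, 82.7 and 72.4 at the medium dose and 27.1, 21.7 and 19.9 at the high dose. In both, no 2 dose groups overlapped. MT1X fell from 38.7 ± 16.1 CPM to 7.45 ± 0.664 CPM (SD, n = 3 each). MT1F fell from 37.3 ± 15.0 to 4.61 ± 0.401 CPM, and the large low-dose SDs came from low replicate 1. MT1M is a minor member, with 63, 28 and 27 counts at the low dose, 13, 15 and 12 at the medium dose and 1, 1 and 0 at the high dose. MT1A, also a minor member, read 2.89, 1.83 and 1.32 CPM at the low and 1.04, 0.684 and 0.709 CPM at the high dose. In all, 7 of 14 listed members had enough counts to test and all 7 were called lower, with a median log2 change of -2.593, or -1.997 without low replicate 1, against -0.006 and 0.003 for all tested genes. The other listed members, MT1H, MT1L and 5 at 0 in all 9 libraries, had at most 2 counts in any of them. Metallothionein genes are near-identical copies, so reads can be split between them, but the members' sum is less exposed to that: it was 873.3, 393.3 and 361.4 CPM at the low dose, 263.9, 319.6 and 283.0 at the medium dose and 115.3, 107.1 and 99.1 at the high dose. Vehicle libraries summed to 420.7 to 454.7 CPM, so every medium-dose and high-dose library lay below every vehicle library. High dose against vehicle called 3733 of all genes (22.1%), among them all 7 tested metallothioneins as lower (median -2.203).

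Genes that move zinc across membranes changed in both directions. SLC30A1, the exporter of the plasma membrane, fell, with 123, 99.6 and 104 CPM at the low dose against 64.3, 61.1 and 66.2 at the high dose (log2 -0.77 ± 0.060, adjusted p = 6.1e-13). The importer SLC39A4 read 73.2, 95.8 and 89.8 CPM at the low dose, 108, 112 and 111 at the medium dose and 149, 152 and 161 at the high dose. The importer SLC39A10 went from 14.6, 12.2 and 13.7 to 24.7, 26.7 and 27.3 CPM. Both importers rose, by log2 0.84 ± 0.057 (adjusted p = 1.0e-14) and 0.95 ± 0.081 (adjusted p = 6.4e-12), with no overlap between low and high libraries. SLC39A11 was the other member that fell (log2 -0.27, adjusted p = 0.00553), a call lost without low-dose replicate 2. The remaining 15 of 19 tested transporters and MTF1 did not pass the test, and the list median was -0.008. MTF1 itself, the zinc sensor, stood at 20.4 and 20.5 CPM.

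**Figure D2:**
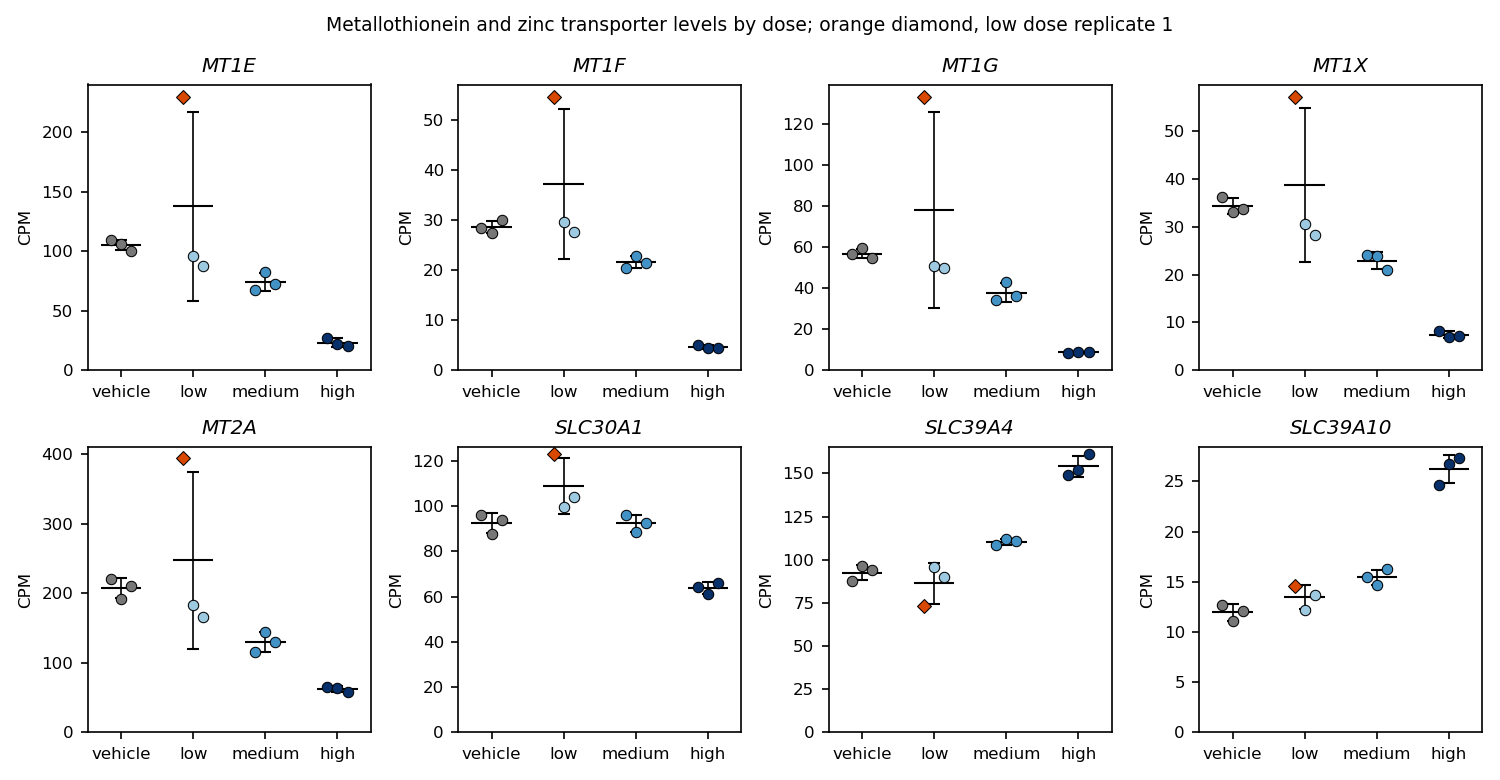
CPM of 5 metallothionein genes and 3 zinc transporters in each library (points) of vehicle and of the low, medium and high dose of schisandra, with the mean (bar) and SD (whisker) of 3 libraries. The orange diamond is low replicate 1, which is the highest of all libraries for each metallothionein and for SLC30A1, and the high-dose points lie apart from the low-dose points in every panel.

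Xenobiotic-response genes rose in a few members. CYP1A1 read 7.63, 7.09 and 6.97 CPM at the low dose, 12.96, 11.4 and 11.0 at the medium dose and 34.1, 32.7 and 33.0 at the high dose, a 4.58-fold rise from low to high. Vehicle and low dose overlapped, while medium and high each stood clear of both. Of 7 tested AhR targets 2 rose, CYP1A1 and the quinone reductase NQO1 (429 to 558 CPM), and 4 of the rest averaged under 1 CPM. Among 11 tested PXR and CAR targets 3 rose and 3 fell, beside 3.92% of all tested genes called higher and 3.4% called lower. The counts of both lists were the same without low replicate 1. The exporter ABCC2 rose from 337, 318 and 325 to 469, 454 and 465 CPM, and CYP3A5, a steroid and drug oxidase, from 5.33, 4.37 and 5.04 to 7.99, 6.96 and 7.38 CPM (log2 0.59 ± 0.12, adjusted p = 0.000762). The sulfotransferase SULT2A1 fell by 0.36 and the glutathione transferase GSTA2 by 0.75 on the log2 scale. ABCB1, the drug efflux pump, did not pass (log2 -0.01 ± 0.059, adjusted p = 0.944). CYP3A4, the best-known PXR target, had 1 to 7 counts in each schisandra library and was not tested.

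NRF2 targets rose in 16 of 26 tested members, 1 fell, and the median was 0.290 (0.353 without low replicate 1, with 17 rising and 1 falling). AKR1B10, an aldo-keto reductase that clears reactive carbonyls, read 53.1, 44.8 and 46.2 CPM (low), 54.1, 51.3 and 51.1 (medium) and 91.6, 97.9 and 95.4 (high). It rose by log2 0.98 ± 0.055 from low to high, with 0.86 ± 0.055 between medium and high, while medium against low gave 0.11 ± 0.056 and did not pass. SQSTM1, the autophagy receptor that binds KEAP1, read 212, 208 and 210.1 CPM at the low and 308, 311 and 304 CPM at the high dose (adjusted p = 1.0e-14). The sulfiredoxin gene SRXN1 rose by log2 0.45 ± 0.042, and HMOX1, which breaks down haem, by 0.33 ± 0.057. SLC7A11, the cystine importer that feeds glutathione synthesis, rose from 52.0 to 75.0 CPM.

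The next largest rises were in secreted and signalling genes. IGFBP1, a liver-secreted binder of insulin-like growth factors, read 38.2, 30.4 and 56.5 CPM at the low dose, 37.6, 43.8 and 65.2 at the medium dose and 126, 148 and 190.1 at the high dose. Its spread within each dose was wide and low and medium overlapped, while every high-dose library exceeded both. GDF15, a stress-induced cytokine, rose from 88.5 ± 1.46 to 185 ± 10.7 CPM (log2 1.07 ± 0.084, n = 3 each). TMCC1, an endoplasmic reticulum membrane protein, rose from 18.1 ± 1.65 to 43.6 ± 3.92 CPM (log2 1.27 ± 0.088). Further rises were in BHLHE40, a clock-linked repressor (log2 0.92), ZFP36, which destabilises inflammatory mRNAs (0.92), CHST15, a chondroitin sulfotransferase (0.92), and RNASET2, a lysosomal ribonuclease (1.03). SLC51A, a subunit of the basolateral bile acid exporter, rose from 2.44, 3.86 and 3.86 to 7.34, 5.72 and 7.01 CPM (adjusted p = 6.1e-06).

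**Figure D3:**
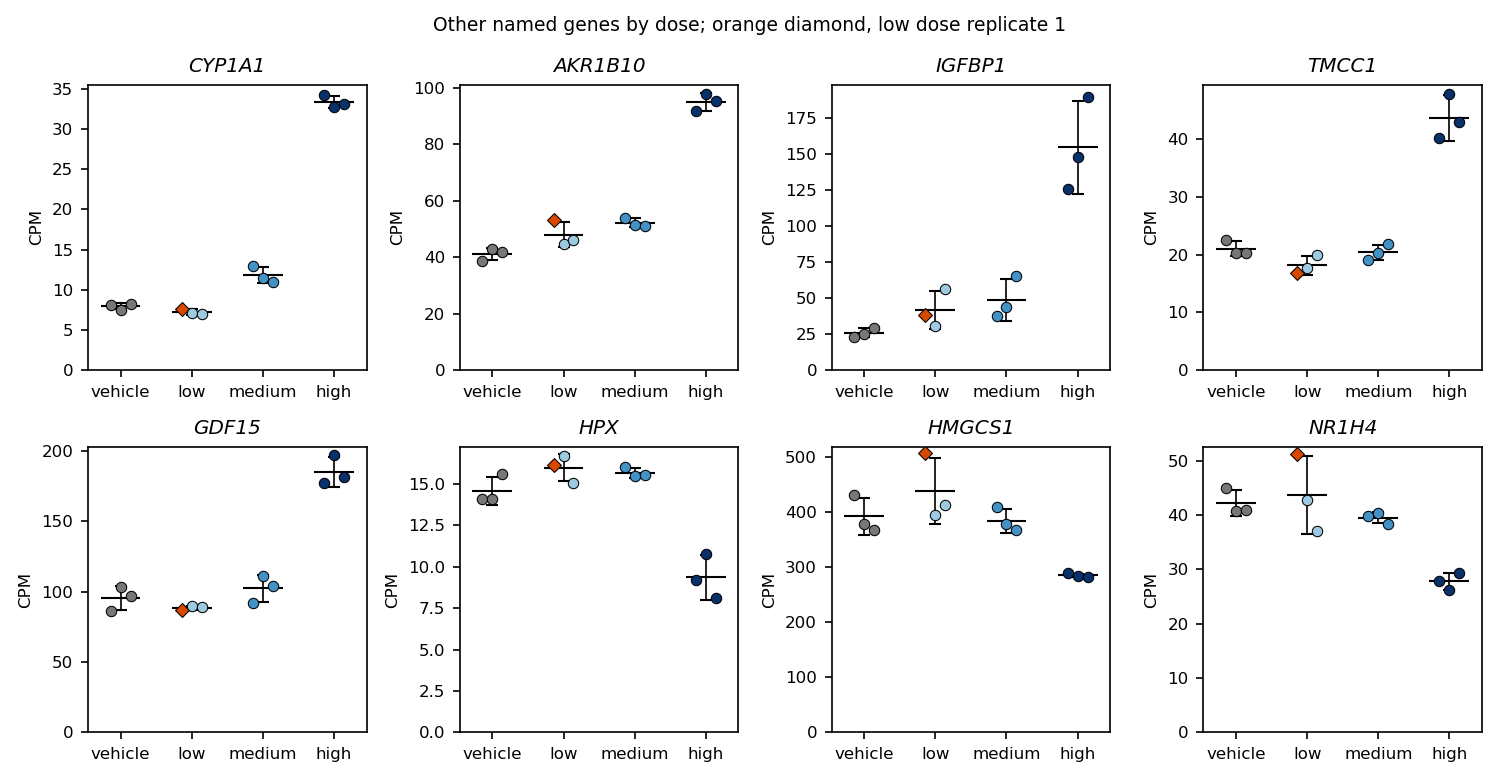
CPM of 8 further genes in each library (points) of vehicle and of the 3 schisandra doses, with mean (bar) and SD (whisker) of 3 libraries and low replicate 1 as an orange diamond. For AKR1B10, IGFBP1, TMCC1 and GDF15 the low and medium points lie close together and the high-dose points stand well above them, and for HPX, HMGCS1 and NR1H4 the high-dose points lie below all others.

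Of 32 glycolysis and hypoxia genes 25 rose and 0 fell (median 0.351, 19 of 32 and median 0.320 without low replicate 1). ALDOA, aldolase A, read 1161, 1306 and 1330.0 CPM at the low dose, 1298, 1432 and 1506 at the medium dose and 1824, 1872 and 1961 at the high dose, with no overlap of low and high. The glucose transporter SLC2A1 went from 678 to 896 CPM, GPI, the second enzyme of glycolysis, from 332 to 436 CPM, and PKM, the last enzyme, from 837 to 1085 CPM. These rises were small, of log2 0.38 to 0.58, and the step from medium to high passed the test in 19 members against 0 in edgeR in the step from low to medium (3 at an unadjusted p under 0.05, 0 by DESeq2 or voom). Of all genes 3.2% and 0.0709% passed in these steps. The list medians of these steps were 0.269 and 0.081. The direct test of a difference between steps, given below, called 0 of the 32 members and 0.23% of all genes. The counts of passes are therefore no test of unequal steps. The core ACGTG of the hypoxia response element was in 20 of 47 windows of this list (42.6%), in the ALDOA windows among them and in 0 of SLC2A1, against 18.5% of all windows.

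Stress and growth-factor lists rose in a smaller share of members. Of all tested genes 3.92% were called higher, and 336 genes were called higher without low replicate 1. Of 33 ATF4 targets, which answer amino acid shortage and stress, 10 rose and 1 fell (8 and 0 without low replicate 1), among them DDIT4, an inhibitor of mTOR signalling, with a mean of 20.6 CPM at the low and 34.9 CPM at the high dose (log2 0.77 ± 0.10). SESN2, a stress-induced regulator of the same pathway, was at log2 0.36 ± 0.072. Growth-factor response genes, the immediate early and MAPK feedback list, rose in 10 of 24 members with 0 falling (6 and 0 without low replicate 1). JUN, a subunit of the transcription factor AP-1, rose from 26.4, 26.7 and 26.6 to 39.8, 38.9 and 37.5 CPM, and IER3, an early response gene, from 44.5, 60.02 and 55.7 to 83.0, 87.4 and 81.8 CPM. Of 12 NF-kB targets 3 rose (2 without low replicate 1), including the adhesion molecule ICAM1 (log2 0.31 ± 0.052). Of 23 matrix genes 7 rose (4 without low replicate 1), including the collagen lysyl hydroxylase PLOD2 (0.37 ± 0.072). Of 21 p53 targets 4 rose (2 rose and 1 fell without low replicate 1), led by GDF15, and the list median was -0.019.

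**Figure D4:**
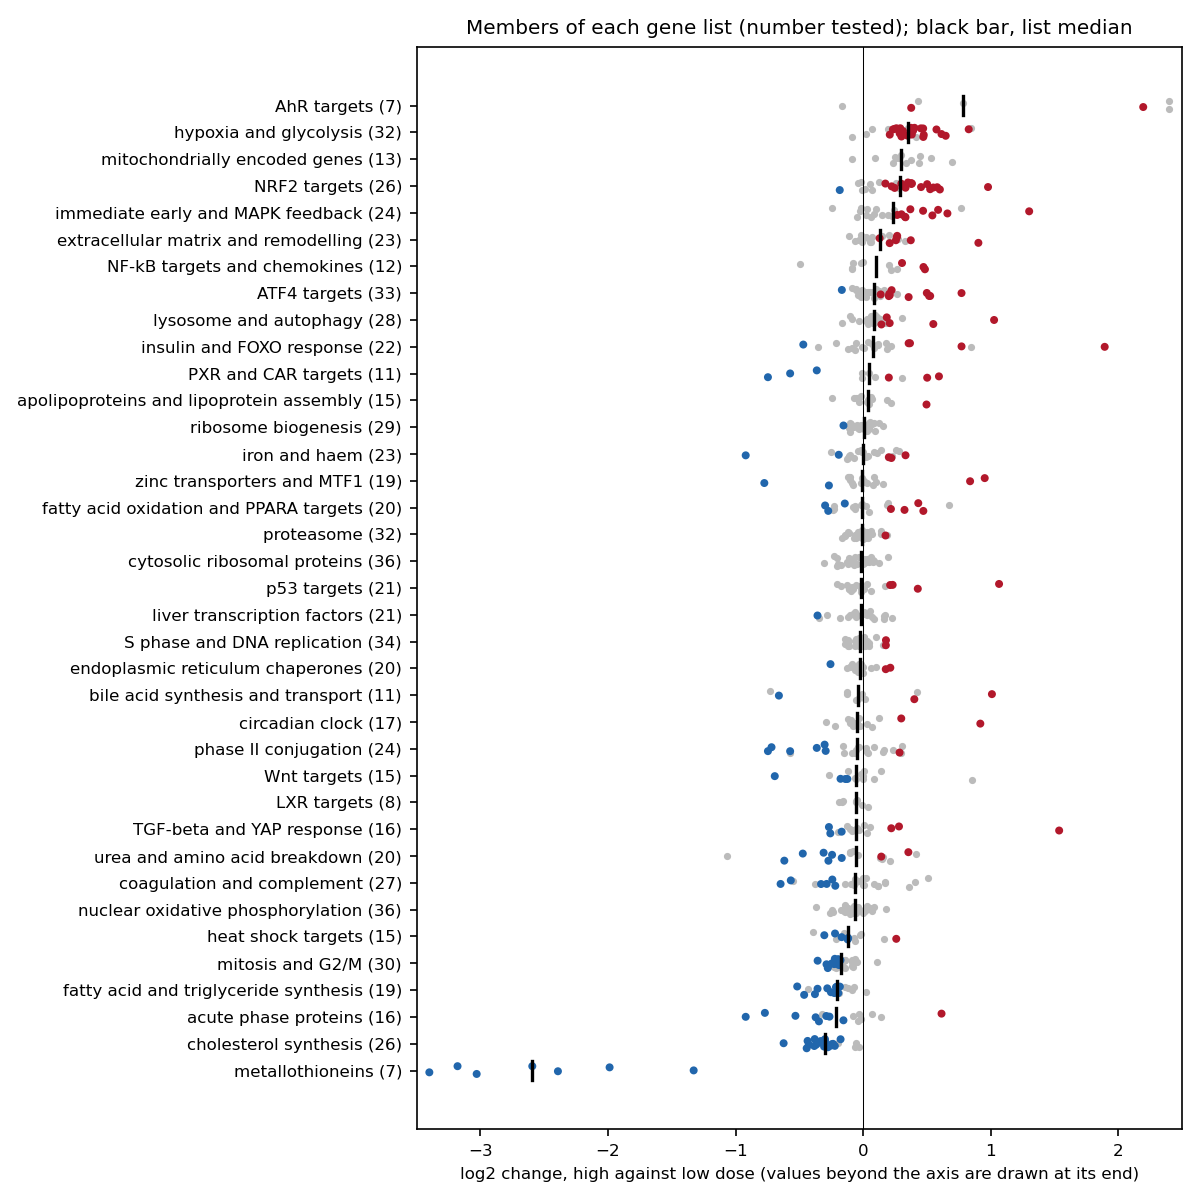
Log2 change from the low to the high dose for every tested member of each gene list (points, number tested in brackets), in red or blue where the gene passed the test and grey where it did not, with the list median as a black bar. Metallothioneins lie to the left of all other lists with a median of -2.593, and cholesterol synthesis is next at -0.298. AhR targets (0.787), hypoxia and glycolysis (0.351), mitochondrially encoded genes (0.294, none called) and NRF2 targets (0.290) lie furthest to the right. The AhR median is the value of AHRR, which was not called, and 4 of the 7 AhR members averaged under 1 CPM.

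Lipid synthesis genes fell. Of 26 cholesterol synthesis genes 21 were lower and 0 higher at the high dose (median -0.298), and 19 were lower without low replicate 1 (-0.278). HMGCS1, which makes the precursor of mevalonate, read 508, 396 and 414 CPM at the low dose, 409.5, 378 and 367 at the medium dose, 289, 284 and 283 at the high dose and 431, 379.7 and 367 in vehicle. The high-dose libraries lay below those of the other 3 groups. The squalene epoxidase SQLE fell by 0.43 and the lanosterol demethylase CYP51A1 by 0.38 on the log2 scale. At the medium dose the list sat level with the low dose (median log2 -0.037, 0 called by edgeR, DESeq2 or voom, 5 at an unadjusted p under 0.05), while 18 members fell between medium and high. The direct test of a difference between steps, given below, called 2 of the 26 members and 0.23% of all genes. Of 19 fatty acid and triglyceride synthesis genes 12 fell and 0 rose (median -0.205, 11 without low replicate 1). ACSS2, which makes acetyl-CoA from acetate, read 147, 144 and 156 CPM at the low dose and 102, 106 and 104 at the high dose, and GPAM, the first enzyme of triglyceride assembly, went from 184 to 133 CPM. Among 20 fatty acid oxidation and PPARA targets 4 rose, including the carnitine transferase CPT1A (log2 0.47 ± 0.083), and 3 fell, including ACSL1 (-0.30). Without low replicate 1 the counts were 4 and 2. The shares over all tested genes were 3.92% higher and 3.4% lower. None of 8 LXR targets passed the test in edgeR, with 2 at an unadjusted p under 0.05 and 0 called by DESeq2 or voom.

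Secreted liver products fell in part. Over all tested genes 3.4% fell and 3.92% rose, and 279 genes fell and 336 rose without low replicate 1. Of 16 acute phase genes 8 fell and 1 rose (7 and 1 without low replicate 1). HPX, the haem scavenger hemopexin, read 16.2, 16.7 and 15.1 CPM at the low dose, 16.02, 15.5 and 15.5 at the medium dose and 9.21, 10.8 and 8.09 at the high dose, so low and medium overlapped and every high-dose library lay below both. HP, haptoglobin, fell from 183 to 127 CPM, and the fibrinogen chains FGA and FGG by 0.35 and 0.37 on the log2 scale. HAMP, the iron hormone hepcidin, read 39.1, 22.5 and 19.5 CPM at the low and 15.9, 14.5 and 12.97 CPM at the high dose, a log2 change of -0.92 that came to -0.53 without low replicate 1. Of 27 coagulation and complement genes 6 fell and 0 rose (4 fell and 1 rose without low replicate 1), among them KNG1, kininogen (log2 -0.65), and C8A (-0.57). ALB, albumin, the most abundant secreted hepatocyte product, did not pass (log2 -0.04 ± 0.060, adjusted p = 0.804).

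NR1H4, which encodes the bile acid receptor FXR, fell from 51.3, 42.8 and 37.0 CPM at the low dose to 27.8, 26.3 and 29.3 at the high dose (adjusted p = 3.8e-10). Its target NR0B2, the repressor SHP, rose (log2 0.40 ± 0.094), a call lost without low replicate 1 (adjusted p = 0.0626). Of 15 Wnt targets 4 fell (4 without low replicate 1), beside 3.4% of all tested genes. They were led by DKK1, a secreted Wnt inhibitor, with 132, 97.2 and 100.3 CPM at the low and 70.5, 69.6 and 64.6 at the high dose. GLUL, glutamine synthetase, fell by 0.18 on the log2 scale. Of 20 urea and amino acid breakdown genes 6 fell and 2 rose (3 and 0 without low replicate 1), and of 24 conjugation genes 6 fell and 1 rose (3 and 1). FAT4, an atypical cadherin, fell from 6.22, 5.42 and 6.21 to 3.49, 3.30 and 3.25 CPM.

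Mitosis genes fell slightly, and the number called depended on low replicate 1. Of 30 members 12 fell and 0 rose, with a median of -0.175, and 3 fell without that library (median -0.113). Of all tested genes 3.4% fell, and 279 genes fell without that library. High against medium, which uses no low-dose library, called 4 lower and 0 higher (median -0.113), and high against vehicle 22 lower and 1 higher (median -0.201). Over all 16924 tested genes, 1.26% were lower in high against medium and 1901 genes in high against vehicle. DLGAP5, a spindle protein, read 52.1, 39.8 and 40.6 CPM at the low and 36.2, 35.1 and 37.8 CPM at the high dose, and was lost without low replicate 1 (adjusted p = 0.125). CCNB1, cyclin B, fell by 0.22 on the log2 scale and kept its call (adjusted p = 0.0113 without that library). Of 34 replication genes 2 rose and 0 fell, beside 3.92% of all tested genes called higher. The median of the replication list was -0.021, and 1 member rose without low replicate 1. Heat shock targets had 5 falling and 1 rising of 15, and 3 falling without low replicate 1.

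No member was called in edgeR among 36 cytosolic ribosomal proteins (median -0.017), 36 nuclear oxidative phosphorylation genes (-0.067) or 13 mitochondrially encoded genes (0.294). At an unadjusted p under 0.05 there were 1, 3 and 8 such members, DESeq2 called 0, 0 and 1, and voom called 0, 1 and 0. The share of counts from mitochondrial genes was 7.25 to 7.85% at the low dose, 8.20 to 10.8% at the medium dose and 8.09 to 10.3% at the high dose, and 11.9 to 14.8% in vehicle. The low-dose libraries thus lay below all others of this extract in that share, and the part this plays in the other results was not tested.

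The medium dose was compared with both other doses. Against the low dose it gave 12 calls (0.0709%), 6 higher (0.0355%) and 6 lower (0.0355%). The higher genes were CYP1A1, SLC39A4, the vitamin D hydroxylase CYP24A1, the clathrin light chain CLTB, TSKU and the tubulin TUBB3, and the lower ones MT1F, MT1G, MT1M, MT1X, MT2A and FAT4. All 12 were also called between high and low dose, which shares the low-dose libraries, but CLTB lost that call without low replicate 1 (edgeR adjusted p = 0.201) and without high-dose replicate 2 (adjusted p = 0.0946). Without low replicate 1 only CYP1A1 was left (log2 0.74, adjusted p = 1.9e-05). Without low-dose replicate 2 or 3 the count was 300 or 41, and without medium-dose replicate 1, 2 or 3 it was 5, 2 or 4. CYP24A1, CLTB, TSKU and TUBB3 were named after their values were seen. High against medium gave 541 calls (3.2%), 327 higher (1.93%) and 214 lower (1.26%), and uses no low-dose library. It fell to 331 calls without medium-dose replicate 2 and to 331 without high-dose replicate 3. The medium mean lay between the low and high means for 85.5% of the 664 genes called higher in high against low. It did so for 89.2% of the 576 called lower and 40.9% of all tested genes. Median log2 changes of the called genes were 0.108 and -0.093 from low to medium, and 0.193 and -0.167 from medium to high. These genes were chosen by high against low, which shares libraries with both steps.

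A direct test of whether the step from medium to high differed from the step from low to medium, both 5-fold in dose, called 39 genes (0.23%). Of these 31 were also called between high and low dose, and 38 had the larger step between medium and high. The count was 22, 9 or 14 without medium-dose replicate 1, 2 or 3, 19 without high-dose replicate 3, 76 without low-dose replicate 2 and 55 without low replicate 1. CYP1A1 had steps of log2 0.70 ± 0.082 and 1.499 ± 0.070 (difference 0.80 ± 0.13, adjusted p = 0.00197). AKR1B10 had a difference of 0.75 ± 0.097 (adjusted p = 2.0e-05) and TMCC1 of 0.92 ± 0.16. Among genes that fell, HPX differed by -0.71 ± 0.13, the tight junction gene TJP3 by -0.87 ± 0.16 and ACSM2B, a mitochondrial acyl-CoA synthetase, by -0.63 ± 0.12. Of the metallothioneins MT1F alone passed (log2 -1.42, adjusted p = 0.0261), but without low replicate 1 MT1F, MT1G, MT1E and MT1X all passed, at -1.81, -1.71, -1.39 and -1.25. Their fall between medium and high was then steeper than between low and medium.

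Medium dose against vehicle shares no library with high against low dose and gives a second reading of direction. It called 3403 genes (20.1%; 9.61% higher and 10.5% lower), and 2198 without vehicle replicate 1. Of the 664 genes higher at the high dose 49.8% lay above 0 in medium against vehicle, and of the 576 lower ones 54.5% lay below 0, close to the 51.4% above and 48.5% below among all tested genes. For genes changed at least 2-fold the shares were larger. Of 28 higher genes 19 (67.9%) lay above 0, with 7 called higher and 0 called lower. Of 17 lower genes 13 (76.5%) lay below 0, with 4 called lower and 0 called higher. Those 17 held all 7 tested metallothioneins, and the 4 called lower were all metallothioneins, so they are 1 gene family. AKR1B10 (log2 0.34), CYP1A1 (0.57) and SLC39A10 (0.37) were above vehicle at the medium dose, and MT1G (-0.59) and MT1X (-0.59) were below it, each with an adjusted p under 0.05. GDF15 (log2 0.10 ± 0.084), TMCC1 (-0.05 ± 0.092), NR1H4 (-0.10 ± 0.064) and SLC30A1 (-0.00 ± 0.060) did not pass there.

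Low replicate 1 differed from its replicates across many genes, and most in some gene groups. The SD over genes of its log2 deviation from its replicates was 0.255, against 0.0888 to 0.163 for the other schisandra libraries. In low replicate 1 the metallothioneins were higher by a median of 0.935 on the log2(CPM + 1) scale, all 7 above both replicates. The medium-dose and high-dose libraries deviated by at most 0.174 in this list. Low-dose replicates 2 and 3 were at -0.385 and -0.552, against means that include low replicate 1. Cytosolic ribosomal proteins were higher by 0.284 (29 of 36 above both replicates) and nuclear oxidative phosphorylation genes by 0.226. Proteasome genes were higher by 0.191 and mitosis genes by 0.140 (25 of 30 above both replicates). The median over the 10723 genes of at least 5 CPM was 0.020, and 5005 of these lay above both replicates and 4269 below both. RPS27, a ribosomal protein gene, read 512, 209 and 210.3 CPM in the 3 low-dose libraries. In the other direction MT-ND6 and MT-ATP8, mitochondrially encoded subunits of the respiratory chain and of ATP synthase, read 367, 897 and 905 CPM and 316, 892 and 804 CPM. Several of the other genes far from their replicates were processed pseudogenes or read-through transcripts such as RPL23AP42 and RPS10-NUDT3, whose reads can be shared with near-identical genes. With these deviations low replicate 1 lay further from both other doses than its replicates did in metallothioneins, and for MT1G, MT1E and MT2A it lay above every vehicle library too.

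**Figure D5:**
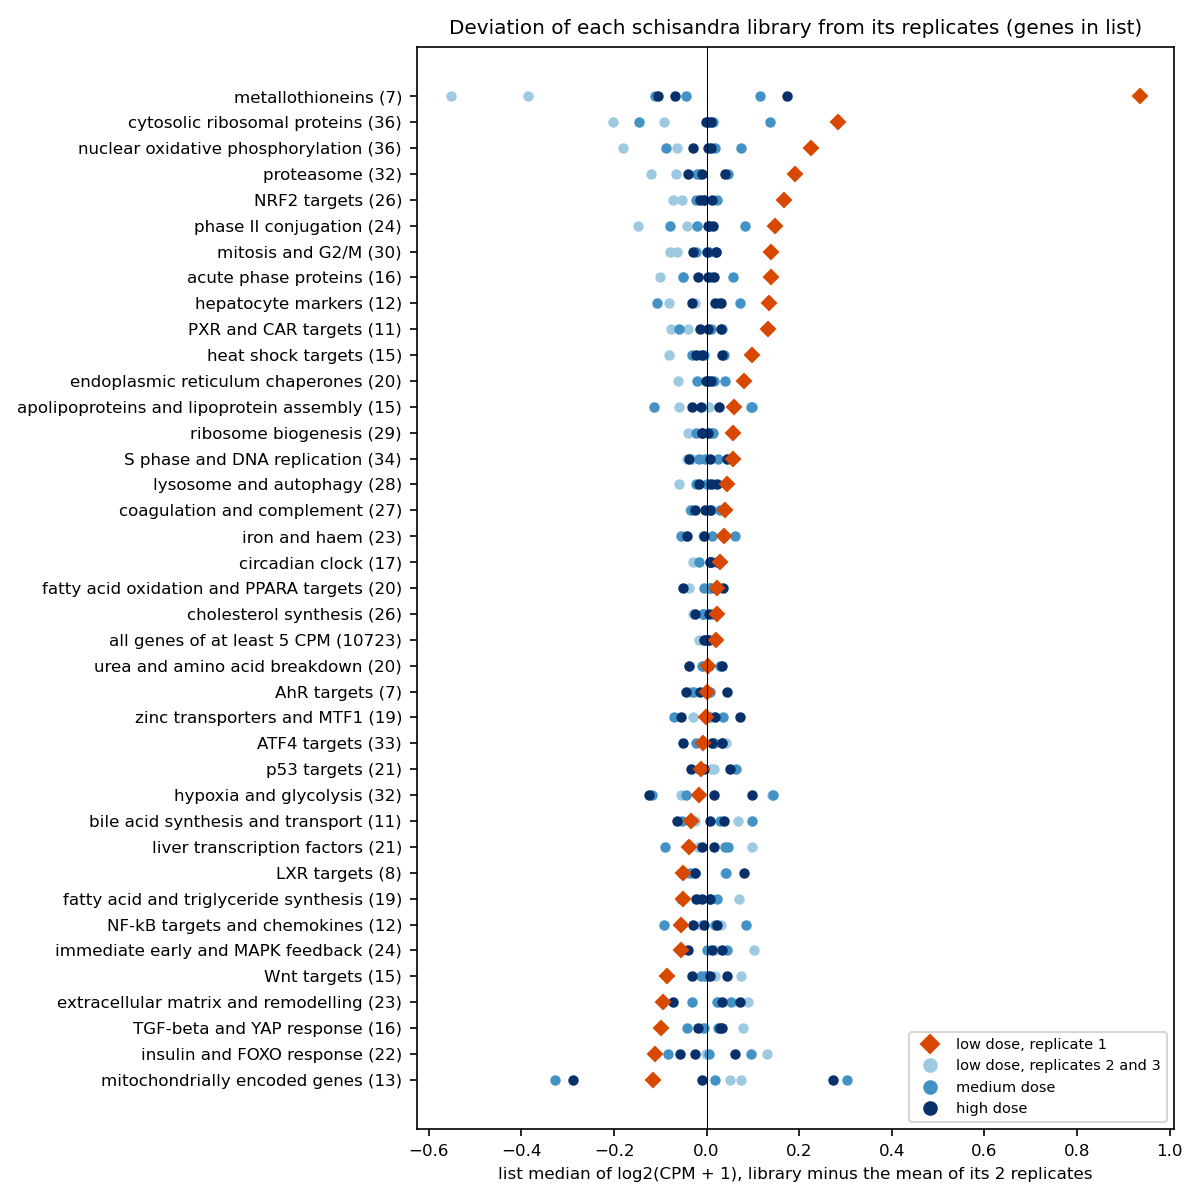
Median deviation of each schisandra library from the mean of its 2 replicates, on the log2(CPM + 1) scale (horizontal axis), for each gene list (rows, number of genes in brackets). The orange diamonds, low replicate 1, reach 0.935 for metallothioneins and 0.284 for ribosomal proteins, while most other points lie near 0.

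The dose response of schisandra also differed from that of liriope at the same doses. The test of the difference between the 2 changes called 695 genes (4.11%), 349 more positive (2.06%) and 346 more negative (2.04%) in schisandra, with 354 called without low replicate 1, 1259 without low-dose schisandra replicate 2 and 1388 without replicate 3. CYP1A1 read 8.18, 7.07 and 8.06 CPM at the low and 9.28, 8.04 and 9.98 CPM at the high dose of liriope, so the change in schisandra was larger by log2 1.97 ± 0.11 (adjusted p = 1.2e-16). MT1G read 59.8, 54.7 and 40.05 CPM at the low and 50.0, 64.3 and 37.8 CPM at the high dose of liriope (difference -3.16 ± 0.32, adjusted p = 3.9e-09), with overlapping doses. The 5 most negative differences among named genes of more than 5 CPM were all metallothioneins, and 17 of 26 cholesterol synthesis genes and 16 of 30 mitosis genes were more negative in schisandra, with 0 of either list more positive. High-dose liriope replicate 2 stood apart from its replicates too, and without it 593 genes were called.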

How the data were processed

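Per the submitters' processing notes and the labels' protocols, directional total RNA libraries were sequenced as read pairs on an MGI instrument, trimmed with Trim Galore 0.6.5, aligned to GRCh38 with STAR 2.7.3a and counted by the authors with RSEM 1.3.3. The annotation release is not given in the sources used here. The deposited values are expected counts per gene (10.4% of values not whole), which were rounded here. edgeR 4.0.16 (R 4.3.3) quasi-likelihood fits used 54 libraries in 19 groups, TMM scaling and genes passing filterByExpr by group (16924 of 60675 tested), with Benjamini-Hochberg adjustment over all tested genes within a comparison and a threshold of 0.05. The 6 unreplicated libraries of 2 other extracts stayed out. SEs are the log2 change over the square root of F. Alternatives were DESeq2 1.42.0, limma 3.58.1 voom weights, other scalings and filters, the replicate block, and leaving out each library. The procedure was tested on simulated counts. Named genes were the 12 largest rises and falls of at least 5 CPM called with and without low replicate 1, up to 4 called members per list, the 5 largest each way in 3 other comparisons, fixed genes of the zinc, drug and lipid responses, and the 10 genes furthest from the replicates each way in low replicate 1. MTF1 and the markers at 0 were named besides. The members and lists were chosen with earlier results of these data known. A few results are not reported here.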

Additional observations from a re-analysis of the deposited data

Results flagged for a closer look

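The change from low to high dose differed between schisandra and liriope, by edgeR's test of the difference at an adjusted p under 0.05, for 63 of the 77 tested genes named above. The values in brackets are the schisandra change minus the liriope change on the log2 scale. Metallothioneins were the most negative: MT1M (-5.30), MT1G (-3.16), MT1F (-2.99), MT1E (-2.67), MT1X (-2.40), MT1A (-2.01) and MT2A (-1.99). MT1M had 2 counts in all at the high dose of schisandra, so its value depends on the prior count of the fit.

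Genes with a more positive change in schisandra, largest first, were CYP1A1 (1.97), IGFBP1 (1.84), SLC51A (1.28), TMCC1 (1.25), GDF15 (1.14), ZFP36 (1.04), CHST15 (1.03), BHLHE40 (0.98), RNASET2 (0.96), CYP24A1 (0.94), SLC39A10 (0.92), SLC39A4 (0.80), CYP3A5 (0.79), SLC7A11 (0.72) and IER3 (0.72). Smaller positive differences were those of JUN (0.70), DDIT4 (0.70), AKR1B10 (0.70), SLC2A1 (0.61), ICAM1 (0.59), SQSTM1 (0.57), NR0B2 (0.55), LYZ (0.51), SRXN1 (0.49), ABCC2 (0.48), SESN2 (0.48), ALDOA (0.45), TSKU (0.43), TUBB3 (0.40), GPI (0.32), PKM (0.30) and NQO1 (0.22). Genes with a more negative change were GSTA2 (-1.18), HAMP (-1.14), DKK1 (-0.90), HPX (-0.89), NR1H4 (-0.85), FAT4 (-0.73), SLC30A1 (-0.71), ACSM2B (-0.67), KNG1 (-0.66), HP (-0.64), TJP3 (-0.60), HMGCS1 (-0.56) and SULT2A1 (-0.52). Smaller negative differences were those of C8A (-0.50), FGG (-0.47), ACSS2 (-0.45), GPAM (-0.44), SQLE (-0.44), DLGAP5 (-0.41), FGA (-0.41), CYP51A1 (-0.35), CCNB1 (-0.32), GLUL (-0.20) and ACSL1 (-0.20). The genes had been named for their change in schisandra, so their number is no measure of how often the extracts differ, for which the share over all tested genes was 4.11%. Liriope high-dose replicate 2 and schisandra low-dose replicate 1 both enter these differences.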

How the results depend on the processing

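For high against low, 615 (without low replicate 1) to 1825 genes (without low replicate 2) were called when 1 library was left out, against 1240. In fits on 12 libraries instead of 54, which estimate the spread from fewer samples, counts fell to 360 (high against low), 1 (medium against low), 173 (high against medium), 1 (difference between steps), 2330 (high against vehicle), 1935 (medium against vehicle) and 54 (schisandra minus liriope). Leaving out 1 library gave 1 to 300 calls for medium against low, 331 to 417 for high against medium, 9 to 76 for the difference between steps, 2673 to 3328 for high against vehicle, 2198 to 3002 for medium against vehicle and 354 to 1388 for schisandra minus liriope. With no filter on low counts, medium against low gave 256 and the difference between steps 249. Voom with quality weights gave 2, 125 and 1062 for medium against low, the difference between steps and high against medium. DESeq2 gave 21 and 76 for medium against low and the difference between steps, and the robust fit gave 7 for medium against low. The cause of these shifts was not tested. Scaling by library size alone moved the share called higher to 29.1% (from 53.5%) for high against low, 30.0% (50.0%) for medium against low, 43.6% (60.4%) for high against medium, 79.7% (49.1%) for high against vehicle and 86.2% (47.8%) for medium against vehicle, and the median of all genes in high against low was then -0.046 (-0.006). Without the filter the share for schisandra minus liriope was 38.9% (50.2%). In the fit with only the compared libraries it was 72.2%.

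The replicate numbers are not stated to mark shared cultures and were not taken to pair the libraries. Deviations of same-numbered schisandra libraries correlated at -0.108 to 0.265. With liriope libraries included, same-numbered pairs ranged from -0.296 to 0.637 and differently numbered pairs from -0.596 to 0.437. The pairs of replicate 3 were all positive, at 0.196 to 0.637. With the replicate number as a block, the counts were 1457, 14, 641, 66, 3788, 3608 and 888 in the order of the fits on fewer libraries above. Over named genes, 26 values newly passed the threshold and 195 no longer passed it. Of the values that passed in either fit, 0 changed sign. Values that passed in neither fit could change sign, as for RPS27, at log2 -0.576 to 0.211 across the settings for high against low.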
